A study of Caenorhabditis elegans with 9 samples.

Results

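The transthyretin-related genes of Caenorhabditis elegans were described across whole adult worms that had grown on nicotinic acid, on 1-methylnicotinamide (MNA) or on the water used as solvent. The members were all genes whose name in the count table begins with ttr-, which gave 59 of 45461 entries. The series comprised 9 mRNA libraries, 3 from control worms, 3 from worms on nicotinic acid and 3 from worms on MNA, all collected 48 hours after the L4 larval stage. MNA was given at 1 µM. The labels give the dose of nicotinic acid as 1 mM in one field and as 1 nM in another, so its dose is not settled here. All plates came from a single batch of agar. A strain or genotype is not stated, and the labels do not say whether the 3 libraries of a group came from separate cultures. The p-values therefore set each difference against the spread between these libraries only.

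Nicotinic acid is a precursor of NAD, and MNA is the methylated form of nicotinamide that is made when a methyl group is moved from S-adenosylmethionine. Transthyretin itself is a vertebrate plasma protein that carries thyroid hormone and retinol-binding protein. The transthyretin-related family is a large nematode family of small proteins, most of them with a predicted signal for secretion, and its members are also abundant among the proteins that parasitic nematodes release. The function of most members in C. elegans is not known. The best described is TTR-52, a secreted protein that binds phosphatidylserine on the surface of dying cells and links them to the engulfment receptor CED-1, and that also acts in the fusion of severed axons. TTR-33 has been linked to the protection of dopaminergic neurons from oxidative damage, and TTR-11 to axon repair beside TTR-52.

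The libraries held 18501261 to 31247605 counts, and after the filter on low counts 13985 genes were tested. All 16 markers of adult tissues were above the filter, and their summed level was 64600 to 75500 CPM (counts relative to the TMM-scaled library total) in the controls, 50000 to 68800 on nicotinic acid and 58800 to 62300 on MNA. The embryo markers, of which 13 of 15 were tested and hlh-1 was at 0 in every library, summed to 233 to 251 CPM in the controls, 181 to 204 on nicotinic acid and 190 to 206 on MNA, with no overlap between the controls and either treatment. The sperm markers, of which 8 of 14 were tested and msp-10 was at 0 in every library, summed to 13.4 to 13.6 CPM in the controls, 16.8 to 33.4 on nicotinic acid and 12.4 to 15.6 on MNA. The library from nicotinic acid replicate 1 stood highest for sperm markers.

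Of the 59 members, 58 were annotated as protein coding and ttr-4 as a pseudogene. Their annotated exons covered 364 to 1415 bases with a median of 569, against a median of 1161 for the 19985 protein-coding genes of the annotation (Ensembl, WBcel235). Chromosome V held 22 members, or 37.3% of the family against 25% of all protein-coding genes. The X chromosome held 12 members, or 20.3% against 13.7%. Chromosome II held 2, or 3.4% against 17.3%. Many members lay side by side: 29 had another member within 3 genes, in 12 groups, and 28 directly adjoined another member.

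Expression across the family spanned orders of magnitude. Of the 59 members, 50 had counts in all 9 libraries and 48 passed the filter. The highest was ttr-15, at 469 ± 67.8 CPM per kilobase of exon (SD over 9 libraries), with libraries from 402 to 587. It was followed by ttr-2 at 295 ± 51.2 and ttr-16 at 246 ± 17.9 CPM per kilobase. The next 7 members were ttr-46 at 127 ± 12.7, ttr-24 at 93.6 ± 6.26, ttr-50 at 91.3 ± 30.0, ttr-41 at 89.1 ± 8.67, ttr-47 at 83.9 ± 6.54, ttr-6 at 83.3 ± 8.16 and ttr-42 at 70.8 ± 6.76 CPM per kilobase. On this scale 26 members were at 10 or more, 19 between 1 and 10 and 14 below 1. The lowest tested member, ttr-3, was at 0.493 CPM per kilobase, so ttr-15 was 952-fold above it. A few members carried most of the signal, since ttr-15 took 21.8% of all member counts and the top 5 took 55.6%.

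In the controls alone the order at the top was resolved for 3 members. ttr-15 at 536 ± 82.5, ttr-2 at 349 ± 54.4 and ttr-16 at 252 ± 22 CPM per kilobase (SD, n = 3) did not overlap their neighbours in the order. ttr-46 at 138 ± 13.8 and ttr-50 at 129 ± 12.7 overlapped each other. In the run of ttr-24, ttr-41, ttr-6 and ttr-47, between 94.9 and 85.9, each member overlapped the next. Of 54 pairs of neighbours in the order, 42 had overlapping control libraries. The overlapping pairs include ttr-9 with ttr-11 and ttr-11 with ttr-19, where every control library was at 0. The spread between controls, as the coefficient of variation of CPM, had a median of 10.9% over the members against 8.61% over all genes, and ran from 2.06% for ttr-53 to 40.9% for ttr-34.

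**Figure D1:**
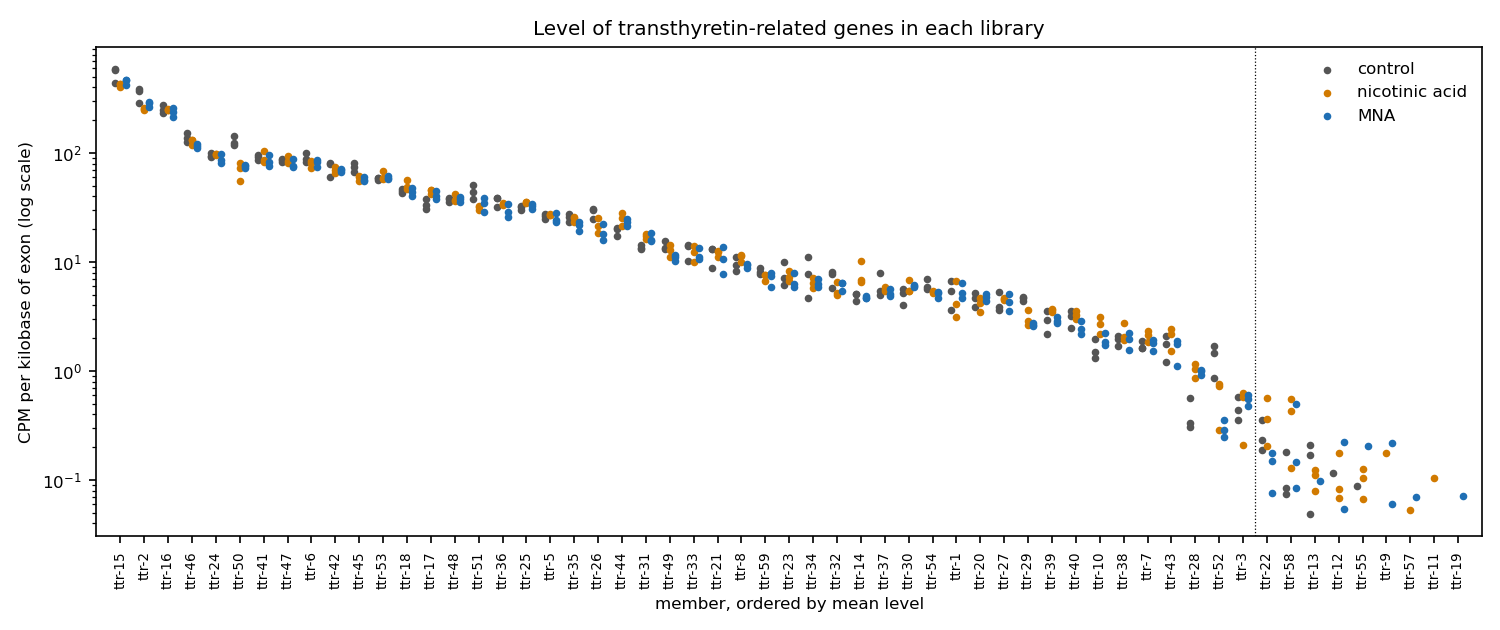
Level of each member in CPM per kilobase of exon (log axis) in every library, ordered by the mean over 9 libraries, with points for control, nicotinic acid and MNA libraries. The dotted line separates the 48 tested members from those below the filter, and values of 0 are not drawn. ttr-15, ttr-2 and ttr-16 stand above the rest, and the control points of ttr-50 lie above both treatments.

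The other 11 members were ttr-4, ttr-9, ttr-11, ttr-12, ttr-13, ttr-19, ttr-22, ttr-55, ttr-56, ttr-57 and ttr-58. They had at most 28 counts over the 9 libraries and at most 8 in a single library. ttr-4 and ttr-56 were at 0 in every library, where a count of 0 allows a level of up to 0.096 to 0.162 CPM depending on the library (3 counts, counting error only). Exons of ttr-56 overlap those of ttr-55 on the same strand, and exons of ttr-4 overlap those of cbp-3 on the opposite strand. How reads shared with these genes were counted is not stated, so the bound covers counted reads only. The lowest members above 0 were ttr-57 at 0.0136, ttr-11 at 0.0116 and ttr-19 at 0.00791 CPM per kilobase. The member with a role in axon repair, ttr-11, had 1 count in nicotinic acid replicate 2 and 0 in the other 8 libraries, so that no change could be measured at this depth.

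After MNA, 5 of the 48 tested members fell and 1 rose. The members that fell were ttr-50, ttr-45, ttr-52, ttr-29 and ttr-26, and ttr-28 rose. In edgeR's quasi-likelihood test with an adjusted p below 0.05, the 6 called members were 12.5% of those tested, against 7.41% of all genes. By direction, 10.4% of tested members fell against 3.78% of all genes, and 2.08% rose against 3.63%. The median log2 fold change of the tested members was -0.103, against -0.003 for all genes, and 32 of 48 lay below 0 (66.7% against 50.8% of all genes). The changes ran from -2.14 to 1.28, and 28 of 48 were within 0.25 of 0. The 3 MNA and 3 control libraries did not overlap for 13 members, or 27.1% against 24.6% of all genes. Leaving out MNA replicate 3 moved the median to -0.199, and leaving out MNA replicate 2 or MNA replicate 1 left 2 or 3 members called lower.

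After nicotinic acid, 4 of the 48 tested members fell and 2 rose. The members that fell were ttr-50, ttr-45, ttr-2 and ttr-51, and those that rose were ttr-14 and ttr-17. The 6 called members were again 12.5% of those tested, against 5.34% of all genes. By direction, 8.33% fell against 3.40% of all genes, and 4.17% rose against 1.94%. The median log2 fold change was -0.011, against 0.0 for all genes, and 25 of 48 lay below 0 (52.1% against 50.1%). Leaving out control 3 moved this median to 0.036. The libraries of the groups did not overlap for 17 members, or 35.4% against 22.6% of all genes, with 8 higher and 9 lower on nicotinic acid. Leaving out the library of control 1 or nicotinic acid 2 left 1 member called lower, and leaving out control 2, nicotinic acid 1 or nicotinic acid 3 left 2. Leaving out control 3 left 0 members called higher, and leaving out control 1, control 2, nicotinic acid 1, nicotinic acid 3 or MNA 1 left 1. Beside the members that fell, the summed embryo markers were lower in all 6 treated libraries than in the controls, with 2 of 13 called lower and 1 higher after MNA and 2 called lower on nicotinic acid. Much of that drop was in hch-1, at 31.7 ± 7.79 CPM in the controls, 5.65 ± 4.19 on nicotinic acid and 3.94 ± 1.27 on MNA, and the median log2 fold change of the 13 was -0.073 for MNA and -0.148 for nicotinic acid. The summed adult markers were also below every control in each MNA library. Most of that sum came from the yolk protein genes, with vit-6 at 44900 ± 3810 and vit-2 at 17100 ± 1060 CPM in the controls. The median log2 fold change of the 16 adult markers was 0.012 for MNA, with 7 below 0, and -0.08 for nicotinic acid, with 10 below 0. The MNA median joins tissues that differed in sign. The intestinal genes vit-2, vit-5, vit-6, elt-2 and ges-1 were at -0.20, -0.31, -0.21, -0.29 and -0.28 for MNA. The muscle and pharynx genes myo-3, myo-2 and myo-1 were at 0.30, 0.34 and 0.33. The intestinal esterase gene ges-1 was the only adult marker called after MNA, as lower (log2 -0.28, edgeR adjusted p = 0.0241). The part of these markers in the results was not tested. Both comparisons used the same 3 control libraries, so the values on the 2 compounds are set side by side and are not independent of each other. The tested members had 95% intervals with a median width of 0.58 on the log2 scale, which limits what the other members show.

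**Figure D2:**
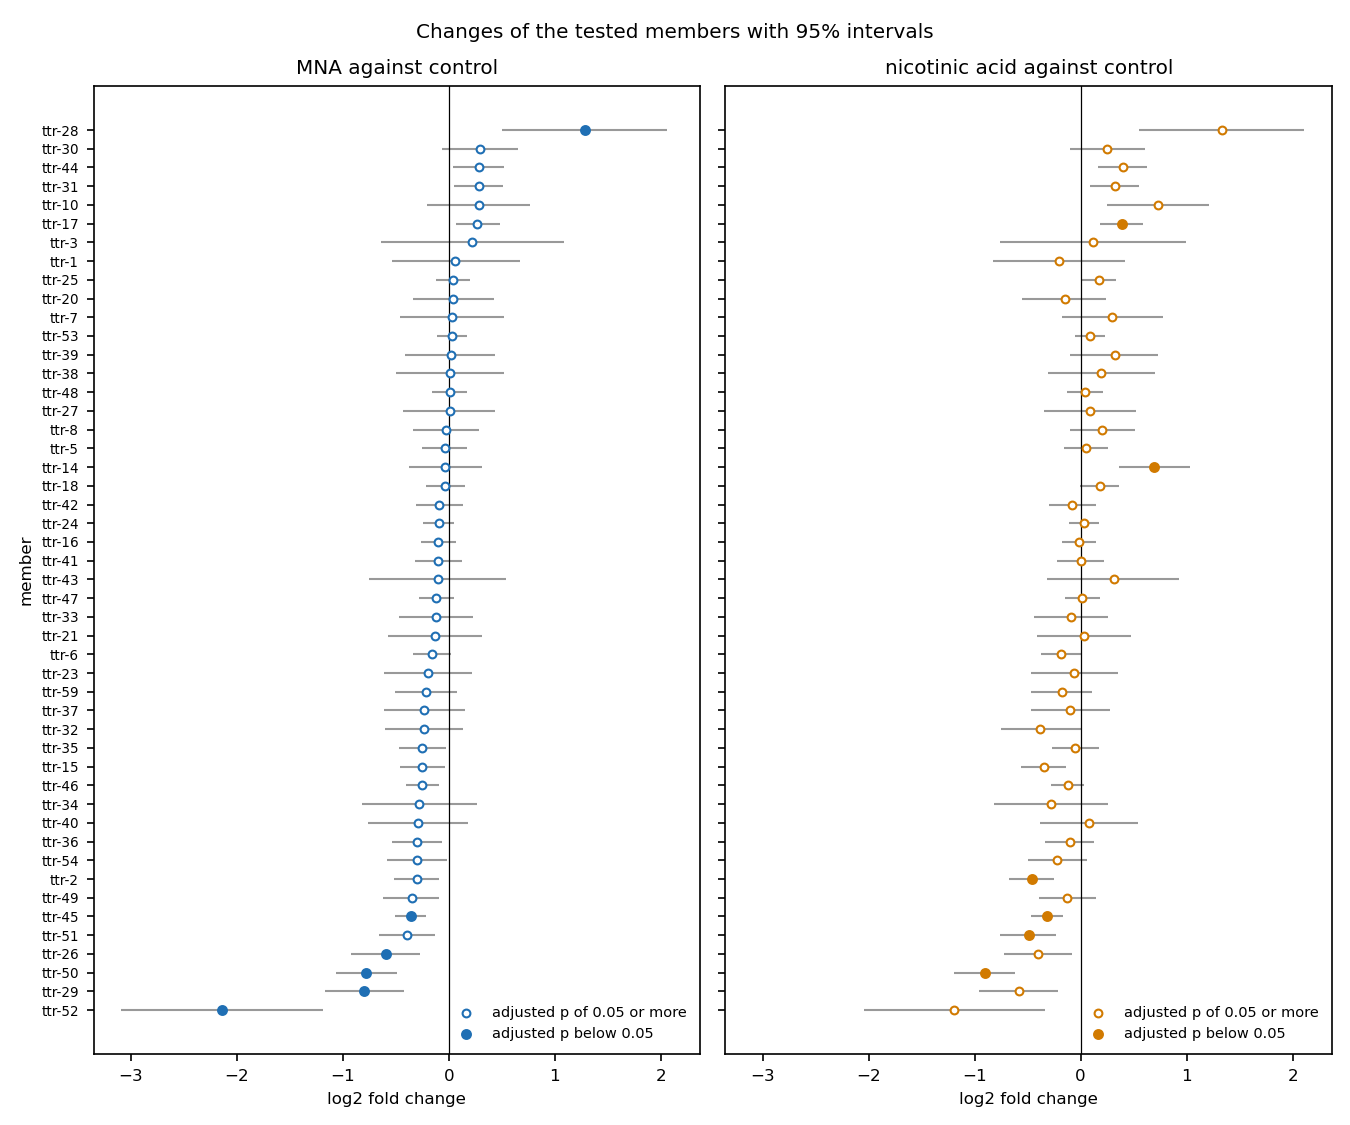
Log2 fold change of the 48 tested members against control, with 95% intervals (horizontal lines), for MNA on the left and nicotinic acid on the right. Filled points have an edgeR adjusted p below 0.05. ttr-52 lies farthest left after MNA at -2.14, ttr-28 farthest right at 1.28. ttr-14 lies at 0.69 for nicotinic acid and at -0.04 for MNA.

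ttr-50 (F58B3.9), whose role is not known, was the member of the 10 most abundant that fell on both compounds. It stood at 131, 109 and 114 CPM in the control libraries, 50.6, 73.5 and 65.9 on nicotinic acid and 70.3, 66.2 and 70.1 on MNA. Every treated library lay below every control library. The mean level was 118 ± 11.6 in the controls, 63.3 ± 11.7 on nicotinic acid and 68.9 ± 2.28 on MNA (CPM, SD, n = 3). The log2 fold change was -0.90 (SE 0.13, edgeR adjusted p = 0.00874) for nicotinic acid and -0.78 (SE 0.12, edgeR adjusted p = 0.00849) for MNA. Both calls held without any single library, the highest adjusted p being 0.0343 and 0.0486. Since these are whole worms, fewer cells of a type that express a gene and less RNA per cell cannot be told apart. The exons of ttr-50 overlap those of rbm-17, a gene on the opposite strand, and the counts are not stated to use strand. rbm-17 was at 44.1 ± 0.518 CPM in the controls, 44.0 ± 2.88 on nicotinic acid and 46.7 ± 0.774 on MNA, with log2 fold changes of 0.0 and 0.08 (edgeR adjusted p = 0.989 and 0.484).

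ttr-45 (JC8.14) and ttr-51 (JC8.8) are neighbours on chromosome IV, and both have no known role. ttr-45 was at 54.8, 50.2 and 45.8 CPM in the controls, 41.2, 37.5 and 41.7 on nicotinic acid and 40.6, 38.5 and 37.9 on MNA, so that neither treatment overlapped the controls. Its log2 fold change was -0.36 (SE 0.07, edgeR adjusted p = 0.00723) for MNA, which held without any single library, and -0.32 (SE 0.07, edgeR adjusted p = 0.0196) for nicotinic acid, which no longer passed when control 1 or nicotinic acid 2 was omitted (adjusted p up to 0.0877). ttr-51 was at 24.7, 21.2 and 18.3 CPM in the controls, 14.3, 15.8 and 15.4 on nicotinic acid and 18.4, 16.7 and 13.8 on MNA. Its nicotinic acid libraries lay below all controls, whereas MNA replicate 1 lay within the control range. The log2 fold change was -0.49 (SE 0.12, edgeR adjusted p = 0.0341) for nicotinic acid and -0.39 (edgeR adjusted p = 0.0717) for MNA. The MNA difference passed with no filter (adjusted p 0.0195) and when control 3 was omitted (0.0339). The nicotinic acid call did not survive omission of control 1, control 2, MNA 2 or any library on nicotinic acid (adjusted p up to 0.138), nor that of nicotinic acid 1 and MNA 3 together (adjusted p 0.0593). Its exons overlap those of JC8.7 on the opposite strand, which had log2 fold changes of -0.02 and -0.08 (edgeR adjusted p = 0.91 and 0.557).

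ttr-52 (F11F1.7), the phosphatidylserine-binding member, was lower in the worms on MNA. It was a rare transcript, with 19, 12 and 27 counts in the control libraries, 5, 8 and 14 on nicotinic acid and 4, 4 and 6 on MNA. These correspond to 0.854, 0.507 and 0.993 CPM in the controls, 0.171, 0.428 and 0.45 on nicotinic acid and 0.169, 0.145 and 0.21 on MNA. All treated libraries lay below all controls, and nicotinic acid replicate 1 lay among the MNA libraries. The mean level of 0.785 ± 0.251 CPM in the controls fell to 0.175 ± 0.0328 on MNA (SD, n = 3), a 4.41-fold decrease (log2 -2.14, 95% interval -3.09 to -1.19, edgeR adjusted p = 0.0109). Without MNA replicate 2 the adjusted p was 0.0642. On nicotinic acid the level was 0.35 ± 0.155 CPM and the log2 fold change was -1.19 (SE 0.39, edgeR adjusted p = 0.106). The summed embryo markers were also below the controls in both treatments, in the ranges given above; their part in this result was not tested.

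ttr-27, ttr-28 and ttr-29 lie together on chromosome V and did not move alike. ttr-29 (R90.4) was at 2.83, 2.66 and 2.94 CPM in the controls, 1.77, 1.6 and 2.19 on nicotinic acid and 1.69, 1.6 and 1.58 on MNA. The treated libraries all lay below the controls, and the change was called for MNA (log2 -0.80, SE 0.17, edgeR adjusted p = 0.0148) but not for nicotinic acid (log2 -0.58, edgeR adjusted p = 0.0696). Omitting control 3, MNA 1 or MNA 2 ended the MNA call (adjusted p up to 0.0711). The adjoining ttr-28 (R90.3) went the other way, with 7, 4 and 5 counts in the controls, 14, 12 and 18 on nicotinic acid and 13, 14 and 16 on MNA. Its mean level was 0.222 ± 0.0801 CPM in the controls, 0.566 ± 0.0826 on nicotinic acid and 0.539 ± 0.027 on MNA, with no overlap between control and treated libraries. The difference lay at the threshold: for MNA the log2 fold change of 1.28 (SE 0.36) had an edgeR adjusted p of 0.0496, and for nicotinic acid that of 1.33 (SE 0.36) had one of 0.0504. The MNA call held in 1 of the 9 fits that left out a library, the 1 without nicotinic acid 1 (highest adjusted p 0.167 in the others). Its adjusted p was 0.101 with no filter, 0.069 with the 6 libraries alone, 0.22 by DESeq2 and 0.0927 without nicotinic acid 1 and MNA 3 together. By limma-voom the nicotinic acid difference passed (adjusted p 0.0432). The third of these neighbours, ttr-27, had log2 fold changes of 0.01 for MNA and 0.09 for nicotinic acid.

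ttr-26 (Y51A2D.11), also on chromosome V beside ttr-24 and ttr-25, had 371, 324 and 466 counts in the controls, 301, 265 and 368 on nicotinic acid and 240, 242 and 358 on MNA. Scaled for depth, the MNA libraries at 8.79 to 12.5 CPM lay below all controls, and nicotinic acid replicate 2 at 14.2 CPM lay above the lowest control at 13.7 CPM. The mean was 15.8 ± 1.88 CPM in the controls, 12.1 ± 1.96 on nicotinic acid and 10.5 ± 1.9 on MNA (SD, n = 3). The log2 fold change was -0.59 (SE 0.15, edgeR adjusted p = 0.0302) for MNA and -0.40 (edgeR adjusted p = 0.158) for nicotinic acid. Omitting control 1, control 3, nicotinic acid 3, MNA 1 or MNA 2 ended this call (adjusted p up to 0.143). The neighbours ttr-24 and ttr-25 had log2 fold changes of -0.09 and 0.04 for MNA.

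Among the members called on nicotinic acid, ttr-2 (K03H1.4) was the second most abundant of the family. It was at 193, 184 and 143 CPM in the controls, 126, 127 and 124 on nicotinic acid and 143, 147 and 131 on MNA. The nicotinic acid libraries were close together and below every control, and control replicate 3 lay within the MNA range. The log2 fold change was -0.46 (SE 0.10, edgeR adjusted p = 0.0243) for nicotinic acid and -0.30 (edgeR adjusted p = 0.104) for MNA. The MNA difference passed by DESeq2 (adjusted p 0.0353) and when control 3 was omitted (0.00153). The nicotinic acid call ended when control 1, control 2 or any library on nicotinic acid was omitted (adjusted p up to 0.0885), and when the 6 libraries of the comparison were fitted alone (adjusted p 0.0631) or nicotinic acid 1 and MNA 3 were both omitted (adjusted p 0.133). The most abundant member, ttr-15, was at 326 ± 50.3 CPM in the controls, 256 ± 10.1 on nicotinic acid and 274 ± 13.8 on MNA. Its log2 fold changes of -0.35 and -0.25 did not pass (edgeR adjusted p = 0.0628 and 0.168), and control replicate 3, at 268 CPM, lay within the MNA range.

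ttr-14 (T05A10.3) rose on nicotinic acid and was the member called between the compounds. It was at 6.2, 7.26 and 7.21 CPM in the controls, 14.4, 9.73 and 9.3 on nicotinic acid and 6.57, 6.9 and 6.69 on MNA. All nicotinic acid libraries lay above all others, with replicate 1 well above the other two. The log2 fold change against control was 0.69 (SE 0.16, edgeR adjusted p = 0.0229) for nicotinic acid and -0.04 (edgeR adjusted p = 0.937) for MNA. Omitting control 1, control 3 or nicotinic acid 1 ended the nicotinic acid call (adjusted p up to 0.0904), as did a fit of the 6 libraries alone (adjusted p 0.0608) or one without nicotinic acid 1 and MNA 3 (adjusted p 0.0642). Nicotinic acid replicate 1 also had the highest summed level of sperm markers, 33.4 CPM against 13.4 to 13.6 in the controls. On nicotinic acid 5 of 8 tested sperm markers were called higher, against 1.94% of all genes. These 5 were rare in the controls, with means from 0.0835 CPM for gsp-3 to 1.1 CPM for ssq-1. The part of the sperm markers in the ttr-14 result was not tested. Exons of ttr-14 overlap those of vap-2 on the opposite strand, which had about 9 counts per library and a log2 fold change of 0.72 (SE 0.41, edgeR adjusted p = 0.382) on nicotinic acid.

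ttr-17 (Y5F2A.2) was at 17.5, 15.3 and 14.2 CPM in the controls, 19.5, 21.1 and 21.0 on nicotinic acid and 18.7, 17.4 and 20.7 on MNA. The nicotinic acid libraries lay above all controls, and MNA replicate 2 lay just below the highest control. The log2 fold change was 0.39 (SE 0.09, edgeR adjusted p = 0.0327) for nicotinic acid and 0.27 (edgeR adjusted p = 0.112) for MNA, which passed when control 1 was omitted (adjusted p 0.0493). Omitting control 2, control 3, nicotinic acid 2, nicotinic acid 3 or MNA 1 ended the call (adjusted p up to 0.109), as did a fit of the 6 libraries alone (adjusted p 0.0583). Its neighbour ttr-16, the third most abundant member, was at 130 ± 11.3 CPM in the controls, 128 ± 2.16 on nicotinic acid and 121 ± 12.1 on MNA.

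**Figure D3:**
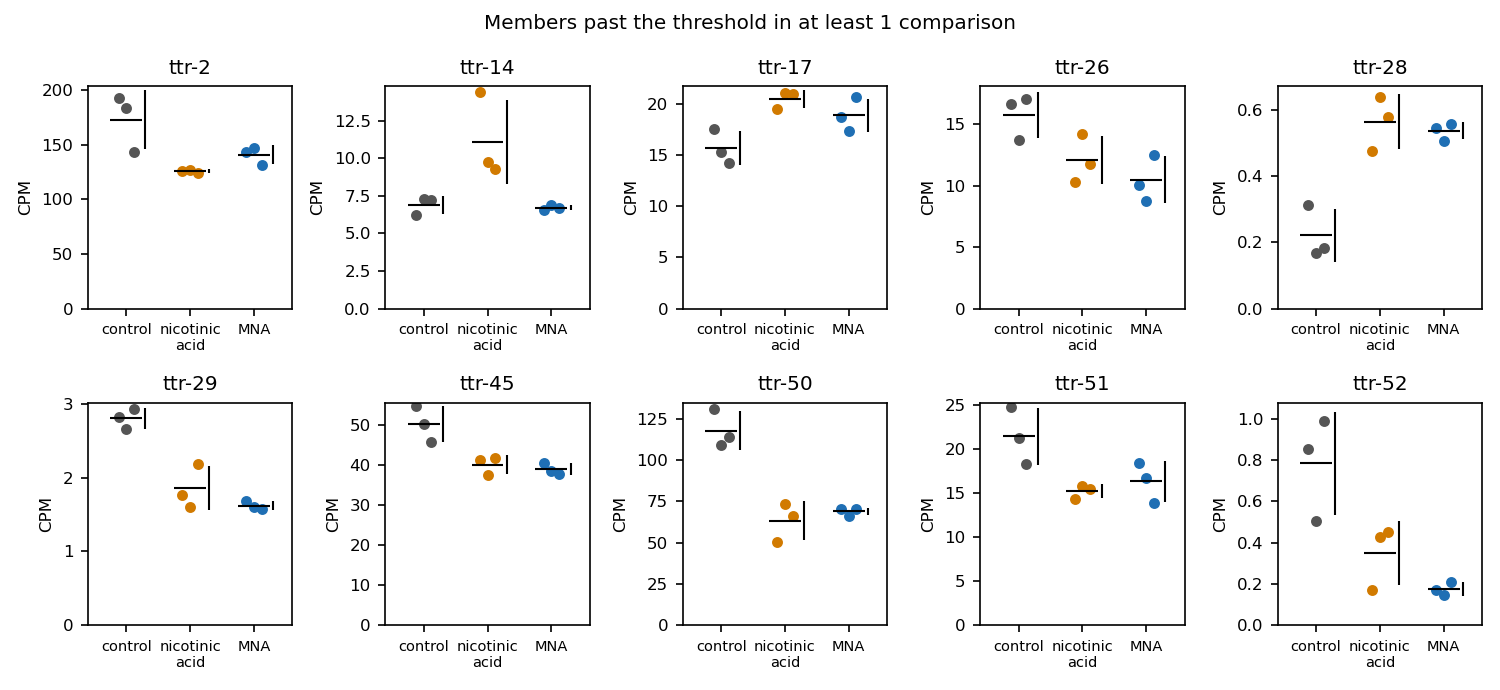
CPM of the 10 members called in at least 1 comparison, with 1 point per library, a horizontal line at each group mean and a vertical line of 1 SD on either side, on axes that start at 0. In ttr-50, ttr-45, ttr-29 and ttr-52 all treated points lie below the control points, and in ttr-28 they lie above. In ttr-14 only the nicotinic acid points are raised, from 9.3 to 14.4 CPM.

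Several members outside the calls had sizeable differences whose error was too wide or whose adjusted p lay above the threshold. ttr-10 was at 1.32 ± 0.267 CPM in the controls and 2.21 ± 0.409 on nicotinic acid (log2 0.73, SE 0.22, edgeR adjusted p = 0.078). ttr-44 was at 12.8 ± 1.08 CPM in the controls, 16.8 ± 2.19 on nicotinic acid (log2 0.40, edgeR adjusted p = 0.0559) and 15.5 ± 1.28 on MNA (log2 0.28, edgeR adjusted p = 0.18), and its treated libraries all lay above the controls. ttr-30 was at 3.34 ± 0.585 CPM in the controls and 4.07 ± 0.0688 on MNA (log2 0.29, edgeR adjusted p = 0.376). ttr-46, the fourth most abundant member, was at 92.0 ± 9.2 CPM in the controls and 77.6 ± 3.69 on MNA (log2 -0.25, edgeR adjusted p = 0.0585).

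Neither ttr-33 nor ttr-1 was called. ttr-33, linked to the protection of neurons, was at 7.54 ± 1.34 CPM in the controls, 7.14 ± 1.13 on nicotinic acid and 6.92 ± 0.927 on MNA. The 95% intervals of its log2 fold change ran from -0.44 to 0.26 for nicotinic acid and from -0.47 to 0.23 for MNA. Exons of ttr-33 overlap those of txt-5 on the same strand, and how shared reads were counted is not stated. ttr-1 was at 2.79 ± 0.803 CPM in the controls, 2.48 ± 0.988 on nicotinic acid and 2.89 ± 0.474 on MNA, with intervals from -0.83 to 0.42 and from -0.54 to 0.67.

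The worms on MNA and those on nicotinic acid were also compared with each other, at doses that differ and of which the second is not settled. ttr-14 was lower on MNA (log2 -0.73, SE 0.16, edgeR adjusted p = 0.0369), and 1 of 48 members called is 2.08% against 1.42% of all genes. By direction the share of all genes was 0.315% lower and 1.10% higher. It no longer passed when control 3, nicotinic acid 1 or any library on MNA was omitted (adjusted p up to 0.179), by limma-voom (adjusted p 0.0575) or without nicotinic acid 1 and MNA 3 together (adjusted p 0.0707). In edgeR 0 members were called higher on MNA, with 0 at an unadjusted p below 0.05, and DESeq2 and limma-voom also called 0. ttr-52 had a log2 difference of -0.95 with an interval from -2.04 to 0.14 (edgeR adjusted p = 0.448), and ttr-10 of -0.45 with an interval from -0.91 to 0.01. The largest positive differences were 0.27 for ttr-1, 0.20 for ttr-20 and 0.16 for ttr-2, each with an interval that includes 0. For ttr-50 the difference between the compounds was 0.13 with an interval from -0.16 to 0.42 (edgeR adjusted p = 0.757). The median over the 48 members was -0.107, against -0.003 for all genes, and 37 members lay below 0 (77.1% against 50.9% of all genes).

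That median moved with single libraries. Relative to the mean of the controls, the median member level on a log2 scale was 0.06, -0.017 and 0.027 in the control libraries, -0.011, -0.038 and 0.005 on nicotinic acid and -0.193, -0.129 and -0.012 on MNA. MNA replicates 1 and 2 thus lay below the other libraries, and MNA replicate 3 lay among them. The median of all genes stayed between -0.009 and 0.013. The share of all counts taken by the family was 0.147%, 0.14% and 0.139% in the controls, 0.129%, 0.125% and 0.122% on nicotinic acid and 0.12%, 0.121% and 0.129% on MNA. This share was below all controls in every treated library, and it is set mainly by the few most abundant members. Without ttr-15 it ran from 0.106% to 0.112% in the controls, from 0.0979% to 0.102% on nicotinic acid and from 0.0917% to 0.102% on MNA.

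**Figure D4:**
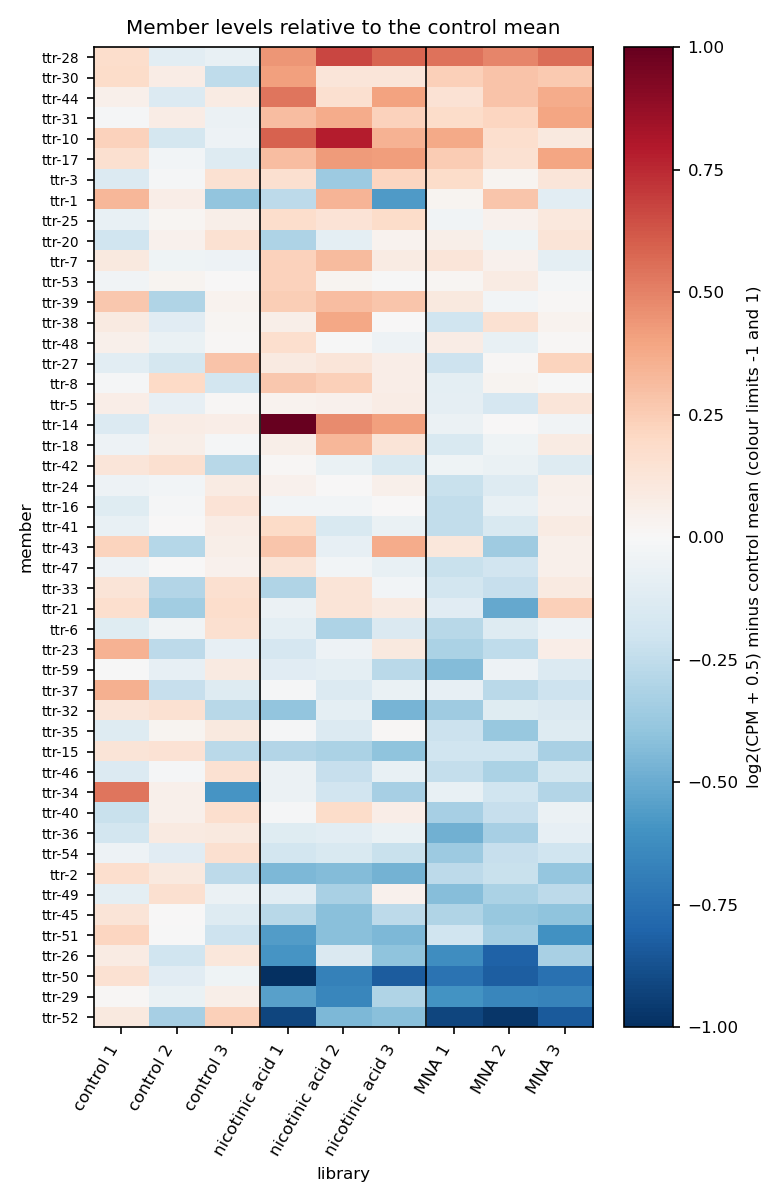
Log2(CPM + 0.5) of each of the 48 tested members in each library minus the control mean, with members ordered by their change after MNA and colours limited to -1 and 1. The 0.5 added to the CPM understates changes of rare members such as ttr-52. The bottom rows, ttr-50, ttr-29 and ttr-52, are low in all treated libraries, and ttr-14 is high in nicotinic acid replicate 1.

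Members that adjoin each other in the genome differed in whether they moved alike. ttr-45 and ttr-51 had values of one sign, -0.36 and -0.39 for MNA and -0.32 and -0.49 for nicotinic acid. ttr-35 and ttr-36 on the X chromosome had -0.25 and -0.30 for MNA, and neither passed. The trio of ttr-27, ttr-28 and ttr-29 held values from -0.80 to 1.28 for MNA. In the group of ttr-1, ttr-2 and ttr-3 on chromosome III, ttr-2 was called lower on nicotinic acid at -0.46 while ttr-1 was at -0.20 and ttr-3 at 0.12. In 2 groups, that of ttr-11, ttr-12 and ttr-57 on chromosome V and that of ttr-55, ttr-56 and ttr-58 on chromosome I, all members were below the filter. Near-identical members can share reads, and how the counting divided such reads is not stated, so values of close neighbours carry that uncertainty.

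**Figure D5:**
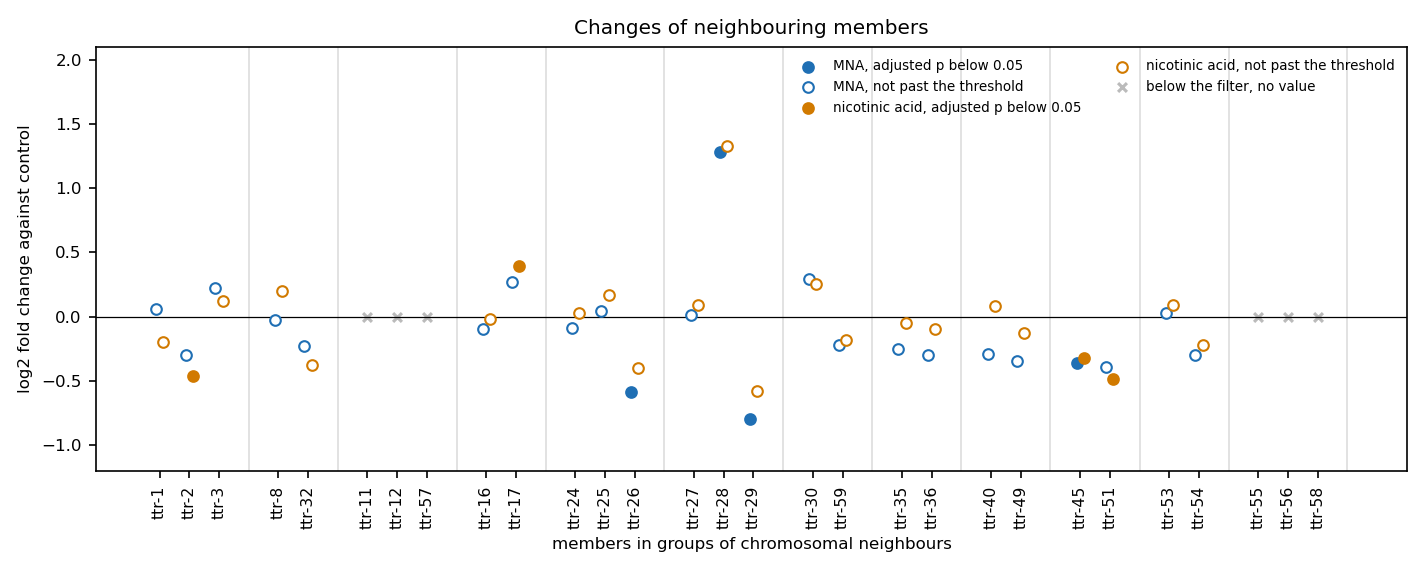
Log2 fold change against control of the 29 members that have another member within 3 genes, grouped by neighbourhood, with filled points where the edgeR adjusted p is below 0.05. Crosses mark members below the filter, which have no value. ttr-28 at 1.28 and ttr-29 at -0.80 for MNA are direct neighbours that lie on opposite sides of 0.

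Genes of dying cell removal, of axon repair or of the control of phosphatidylserine exposure were examined as a list of 17, all of them tested. The list was not limited to partners of TTR-52. ina-1, which encodes an integrin alpha subunit that acts as an engulfment receptor, fell from 71.0 ± 5.03 CPM in the controls to 54 ± 1.09 on MNA (log2 -0.40, SE 0.07, edgeR adjusted p = 0.00645) and to 54.4 ± 5.96 on nicotinic acid (log2 -0.39, SE 0.07, edgeR adjusted p = 0.0118). Omitting control 1 brought the nicotinic acid value of ina-1 to an adjusted p of 0.0503. anoh-1, which encodes an anoctamin linked to phosphatidylserine exposure, rose on nicotinic acid from 0.305 ± 0.08 to 0.798 ± 0.0567 CPM (log2 1.39, SE 0.33, edgeR adjusted p = 0.0276). Omitting control 1, control 3, nicotinic acid 1 or nicotinic acid 3 ended that call, and it was not made by DESeq2 (adjusted p 0.0837), with the 6 libraries alone (0.054) or without nicotinic acid 1 and MNA 3 (0.0781). On MNA anoh-1 was at 0.63 ± 0.137 CPM and did not pass (log2 1.04, SE 0.34, edgeR adjusted p = 0.0872). The other 15 did not pass in either comparison. Of the 17, 1 was thus called lower after MNA, and 1 lower and 1 higher on nicotinic acid, beside 7.41% and 5.34% of all genes called. The receptor gene ced-1 had log2 fold changes of -0.01 for MNA and -0.11 for nicotinic acid, its adaptor ced-6 of -0.10 and -0.09, the phosphatidylserine receptor gene psr-1 of 0.02 and 0.07, and nrf-5, whose product binds phosphatidylserine and acts beside TTR-52, of -0.17 and -0.21. The list's median was -0.021 for MNA and -0.054 for nicotinic acid, against -0.003 and 0.0 for all genes. Of the genes with the related fold of hydroxyisourate hydrolase, an enzyme of urate breakdown, R09H10.3 had log2 fold changes of -0.16 and -0.01 and ZK697.8 was at 0 counts in every library.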

How the data were processed

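Whole-worm RNA was made into libraries with a TruSeq kit that the labels do not describe as stranded. The authors deposited raw counts per gene and RPKM values. Per the submitters' processing notes the tools included CASAVA, TopHat 1.4.1 and HTSeq. The sources used here give no genome build or annotation. The deposited RPKM values were used only for a check, since the gene length they imply was within 1.5-fold of the annotated exon length for 19.3% of members and more than 2-fold away for 63.2%. Levels between genes are therefore CPM per kilobase of exon (Ensembl 115, WBcel235), and the 10 highest and 3 lowest named members were ranked on this scale in place of RPKM.

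Counts of all 9 libraries were fitted with edgeR 4.0.16 in R 4.3.3: TMM scaling, filterByExpr by group with a minimum count of 10, robust quasi-likelihood test, group only, two-sided, Benjamini-Hochberg adjustment over 13985 genes (99.95% of counts), threshold 0.05. The procedure was tested on simulated data. The text names members past the threshold in any comparison, those with a described role, the 10 highest and 3 lowest in level and the 3 largest changes in each direction. Members and lists were chosen with earlier results of these data known. Replicates differed by more than counting noise (chi-square per degree of freedom 2.93 to 15.2). Alternatives were DESeq2 1.42.0, its size factors in edgeR, limma-voom (limma 3.58.1), no filter, a replicate block, the 6 libraries alone and each library left out.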

Additional observations from a re-analysis of the deposited data

How the results depend on the processing

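All 208 values of the 13 member calls under the 16 alternatives kept their sign, and 152 kept the call. The calls were picked from these libraries and every alternative reuses them, so the kept signs are not independent support. Members lower after MNA, 5 in the main test, numbered 7 with no filter, 7 by DESeq2 and 9 with a replicate block. They numbered 2 to 6 with a library left out and 7 without nicotinic acid replicate 1 and MNA replicate 3 together. Which members passed also changed. Without control replicate 3, ttr-26 and ttr-29 no longer passed, whereas ttr-2 and ttr-51 did. Members higher after MNA, 1 in the main test, numbered 0 with no filter, with the replicate block, with 6 libraries alone, with DESeq2 and without nicotinic acid replicate 1 and MNA replicate 3 together (chosen after seeing the data), and 0 to 1 with a library left out. Members lower on nicotinic acid, 4 in the main test, numbered 2 without those 2 libraries and 1 to 5 with a library left out. Members higher on nicotinic acid, 2 in the main test, numbered 0 with 6 libraries alone, 1 without those 2 libraries and 0 to 2 with a library left out. Members lower on MNA than on nicotinic acid, 1 in the main test, numbered 0 by limma-voom, 0 without those 2 libraries and 0 to 1 with a library left out. The cause of these shifts was not tested. Same-numbered libraries of different groups correlated from -0.236 to 0.22 in their deviations from the group means, above 0.1 for 4 of 9 pairs, and the labels do not say what the numbers mark, so the libraries were not treated as paired. With the replicate block ttr-28 did not pass for MNA (adjusted p 0.0769), whereas ttr-2 (0.0302) and ttr-51 (0.0392) passed as lower.

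Values near 0 changed sign with a library left out: ttr-1 ran from -0.15 to 0.27 for MNA and from -0.52 to 0.03 for nicotinic acid, ttr-14 from -0.10 to 0.0 for MNA, and ttr-33 from -0.22 to 0.03 for nicotinic acid. Between the compounds ttr-28 ran from -0.17 to 0.02, ttr-33 from -0.15 to 0.06 and ttr-50 from -0.01 to 0.24. Without those 2 libraries ttr-33 was at 0.04 for nicotinic acid and ttr-50 at -0.04 between the compounds. Low counts limit ttr-52, ttr-28 and the 11 untested members.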

Other observations

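Other small carriers of lipids and fatty acids, the far and lbp genes, were compared beside the family. Of 17 tested, far-3 and lbp-7 rose and lbp-1 and lbp-3 fell after MNA, and far-6, lbp-1 and lbp-3 fell on nicotinic acid, beside 7.41% and 5.34% of all genes called. Omitting single libraries ended the call of lbp-7 in 3 of 9 fits (control 2, MNA 1 or MNA 2), that of lbp-3 after MNA in 4 (control 3 or any MNA library) and on nicotinic acid in 4 (control 1, control 3, nicotinic acid 1 or nicotinic acid 3), and that of far-6 in 4 (control 1, control 3, nicotinic acid 2 or nicotinic acid 3). On nicotinic acid lbp-3 also did not pass with the 6 libraries alone (adjusted p 0.0722) or without nicotinic acid 1 and MNA 3 together (0.0755). far-3, a fatty acid and retinol binding protein gene, was at 19.2 ± 2.27 CPM in the controls, 18 ± 2.75 on nicotinic acid and 39.5 ± 11.4 on MNA (log2 1.04 for MNA, edgeR adjusted p = 0.0327). The far-3 call held in 2 of 9 fits with a library left out (highest adjusted p 0.129), namely those without nicotinic acid replicate 3 or MNA replicate 3, and not with the filter removed (adjusted p 0.0863) or the 6 libraries alone (0.0737). lbp-1, a fatty acid binding protein gene, went from 81.2 ± 6.62 CPM to 61.2 ± 1.52 on MNA and 61.3 ± 7.62 on nicotinic acid (log2 -0.41 for each, edgeR adjusted p = 0.0138 and 0.0196). The lbp-1 call was lost without MNA replicate 1 or MNA replicate 2 in the first comparison, and without control replicate 1 or control replicate 3, or with the 6 libraries alone (adjusted p 0.0733), in the second. The median of these genes was -0.011 for MNA and 0.01 for nicotinic acid, against -0.003 and 0.0 for all genes.

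The length by which the authors' RPKM divided each count was read back from the deposited values. It came to 66886 bases for ttr-14, whose annotated exons cover 1415 bases, and to 54 bases for ttr-2, whose exons cover 496. Over 22634 genes with a count and an annotated exon length, 32.9% were within 1.5-fold and 54.8% were more than 2-fold away. Ratios between libraries of a gene are not touched by this length, whereas the deposited order of genes by RPKM is.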
